A study of Homo sapiens with 18 samples.

Results

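SP1 occupancy was profiled by chromatin immunoprecipitation and sequencing (ChIP-seq) in 4 libraries of ZR75-1 cells, 2 of the ZR751shMLL3 line and 2 of the ZR751shLucif line, out of 18 samples in the whole series. All 4 were chosen by their labels, and no measured value was used. ZR75-1 is an established luminal, estrogen receptor positive breast cancer cell line. ZR751shMLL3 cells carried a lentiviral short hairpin RNA against MLL3 (gene symbol KMT2C), and ZR751shLucif cells carried a hairpin against luciferase. Both lines were stably transduced and sorted for green fluorescent protein. The knockdown line rested on a single hairpin, so an effect of MLL3 loss and an effect of that hairpin on other transcripts cannot be told apart. The comparison asked whether SP1 binding differed after MLL3 knockdown.

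SP1 is a zinc finger transcription factor that binds GC boxes, short GC-rich elements found mostly in CpG-rich promoters of widely expressed genes. MLL3 is a methyltransferase that places monomethylation on lysine 4 of histone H3 (H3K4me1), a mark of enhancers. In breast cancer cells SP1 is also known to act together with estrogen receptor alpha (ERα) at promoters that lack a complete estrogen response element.

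The hairpin target and the targeted gene were examined first. The 21-nt target of the hairpin matched the genome once, at chr7:151841880-151841900 on the minus strand of GRCh37, in coding sequence of exon 55 of KMT2C, and is shown because the knockdown rests on it.
KMT2C target: cgcaccttatagtaaacagtt
In the RNA-seq libraries of the same lines, KMT2C measured 2.34 and 6.77 FPKM, a level scaled for transcript length and library size, in the control line, with 1.07 and 2.69 FPKM in the knockdown line. The lowest control library thus lay below the highest knockdown library, and the lines overlapped. SP1 itself measured 16.7 and 23.7 FPKM in the control line, with 13.7 and 18.3 FPKM in the knockdown line, which also overlapped. Of the luminal markers, ESR1 was at 10.8 to 14.2 FPKM and GATA3 at 140 to 259 FPKM over the 4 RNA-seq libraries, whereas the basal markers KRT5, KRT14 and TP63 were at no more than 0.101 FPKM, and the immune markers PTPRC and CD3E at no more than 0.0318 FPKM. Of the stromal markers, COL3A1 and VIM were at no more than 0.0601 and 0.372 FPKM and COL1A1 was at 13.1 to 17.8 FPKM. CD68, an immune marker, was at 7.66 to 13.9 FPKM. The share of cells that express a gene and the amount of RNA per cell cannot be told apart in bulk libraries.

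The 4 lists did not have the same make-up. Each was a relaxed list of SPP peaks called in 1 library against 1 input, with a signal value whose scale belongs to that list. The lists held 300000, 300000, 209985 and 300000 peaks for ZR751shLucif replicates 1 and 2 and ZR751shMLL3 replicates 1 and 2, the order used for all values in sets of 4. Peaks were therefore compared by their rank by signal, over the 5000 top-ranked peaks of each list. The highest signal was 31.5, 27.5, 32.4 and 136. At rank 5000 the number of peaks with the same signal was 48, 486, 61 and 1, so that near this rank the order is partly arbitrary in ZR751shLucif replicate 2. By the library names all 4 SP1 libraries and the ZR751shLucif input came from 1 library series and the ZR751shMLL3 input from another, and an effect of the input and an effect of the knockdown cannot be told apart. The lists give no read counts for single peaks, and the read totals that the study gives per library were not used here.

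In ZR751shMLL3 replicate 2, SP1 peaks lay mostly at promoters, and in the other 3 libraries they did not. A promoter peak was a peak whose summit lay within 1000 bp of a transcription start site (TSS) of a protein-coding transcript. Of the 5000 top-ranked peaks, 6.82% (95% Wilson interval 6.15 to 7.55%) were promoter peaks in ZR751shLucif replicate 1, 7.64% (6.94 to 8.41%) in ZR751shLucif replicate 2, 8.18% (7.45 to 8.97%) in ZR751shMLL3 replicate 1 and 82.2% (81.2 to 83.3%) in ZR751shMLL3 replicate 2. These intervals cover counting error only. Both knockdown libraries were above both control libraries, but ZR751shMLL3 replicate 1 lay close to the controls, with an interval that overlapped both of theirs, and replicate 2 stood far from all others. The means were 7.23 ± 0.580% (SD, n = 2) in ZR751shLucif and 45.2 ± 52.4% (SD, n = 2) in ZR751shMLL3, a difference of 37.98 points, with p = 0.333 in a two-sided exact permutation test, the smallest p that 2 libraries against 2 allow. Without ZR751shMLL3 replicate 2 the difference was 0.95 points, and without ZR751shMLL3 replicate 1 it was 75.0 points.

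**Figure D1:**
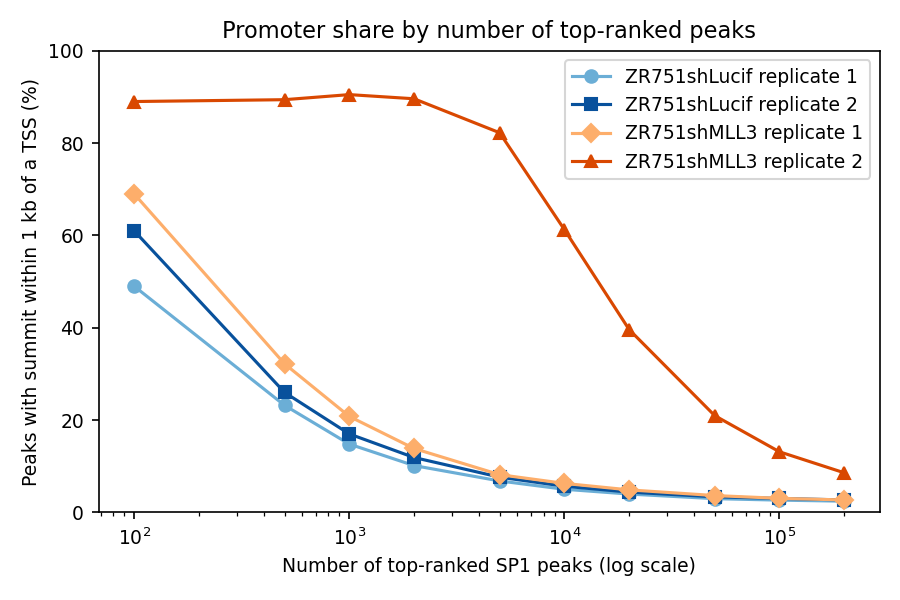
Share of SP1 peaks with a summit within 1 kb of a protein-coding TSS (y axis, %) by the number of top-ranked peaks taken from each list (x axis, log scale), 1 line per library. At 500 peaks ZR751shMLL3 replicate 2 is at 89.4% and the other 3 libraries lie between 23.2 and 32.2%.

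The other 3 libraries were rich in promoters only among their best-ranked peaks. Of the 100 top-ranked peaks, 49.0, 61.0, 69.0 and 89.0% lay at promoters. Of the 500 top-ranked peaks, 23.2, 26.0, 32.2 and 89.4% did. At 20000 peaks the shares were 3.98, 4.41, 4.89 and 39.6%. The promoter share fell with the number of peaks in every library, but in ZR751shMLL3 replicate 2 the fall came beyond 2000 peaks, where the share was 89.6%. The list of ZR751shMLL3 replicate 2 was placed differently in other ways too. Its peaks lay in introns in 5.92% of cases, against 38.5 to 39.7% in the other 3 libraries, and outside genes in 10.2% of cases, against 50.5 to 51.6%. The median distance from summit to TSS was 126 bp in this library and 61587 to 65158 bp in the others. Chromosome 19, which is rich in genes and makes up 1.95% of the genome, held 10.0% of its peaks, against 1.54 to 1.92% in the others.

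CpG-rich promoters and GC boxes were most frequent in ZR751shMLL3 replicate 2 too. Promoters were called CpG-rich where the 1000 bp around the TSS had at least 55% GC and an observed to expected CpG ratio of at least 0.6, as 64.5% of 19748 protein-coding genes did. CpG-rich promoters held 4.38, 5.00, 5.18 and 70.0% of the 5000 top-ranked peaks. The means were 4.69 ± 0.438% and 37.6 ± 45.8% (SD, n = 2 each), a difference of 32.9 points (two-sided exact permutation test, p = 0.333), which was 0.49 points without ZR751shMLL3 replicate 2. With a CpG ratio of at least 0.75 the difference was 22.4 points and p was 0.667 in the same exact test, since the knockdown libraries were then no longer both above both controls. A GC box, GGGCGG on either strand, began within 100 bp of the summit in 4.80, 5.40, 6.02 and 62.9% of peaks, against 2.50, 2.68, 3.30 and 13.7% at positions 1000 bp away. The means at the summit were 5.10 ± 0.424% and 34.5 ± 40.2% (SD, n = 2 each), a difference of 29.4 points (two-sided exact permutation test, p = 0.333), and 0.92 points without ZR751shMLL3 replicate 2. All 4 libraries had more GC boxes at the summits than beside them.

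**Figure D2:**
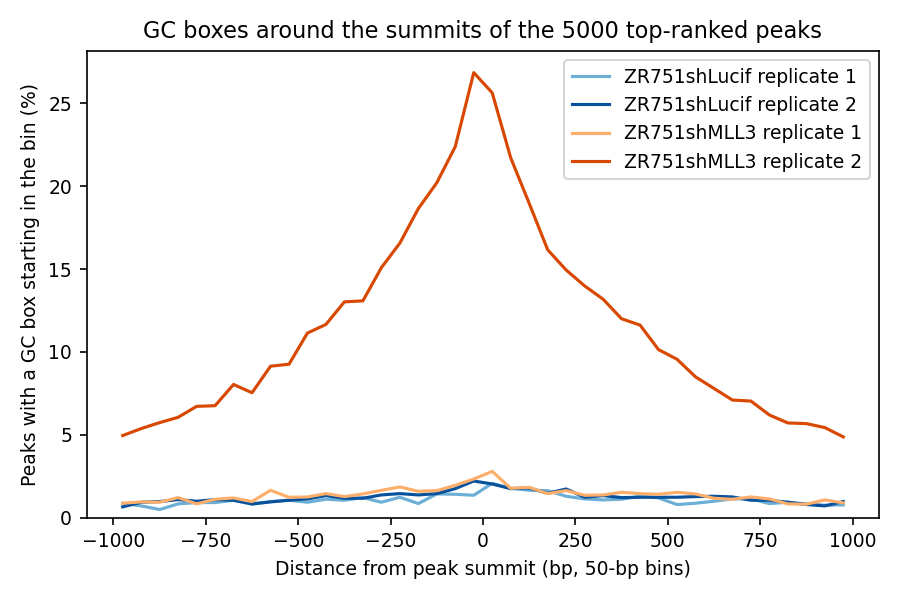
Share of the 5000 top-ranked SP1 peaks in which a GC box starts in each 50-bp bin (y axis, %) by distance from the peak summit (x axis, bp), 1 line per library. ZR751shMLL3 replicate 2 peaks at 26.8% in the bin just before the summit and falls to 4.88% at the right edge, while the other 3 libraries reach at most 2.80%.

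The promoter peaks themselves differed less between libraries than the number of them. GC boxes were found in 57.2, 54.2, 57.2 and 67.3% of the promoter peaks. In peaks outside promoters the shares were 0.966, 1.36, 1.46 and 42.6%. For comparison, windows of 201 bp centred on 78532 TSSs held a GC box in 43.5% of cases, 69.0% of TSSs in CpG-rich promoters and 17.9% of the others. The promoter peaks lay close to the start site in each library, with a median summit position of -87, -67.5, -87 and -54 bp relative to the TSS. CpG-rich promoters made up 64.2, 65.4, 63.3 and 85.1% of promoter peaks. Promoter peaks of ZR751shLucif and of ZR751shMLL3 replicate 1 were thus alike in these measures, and those of ZR751shMLL3 replicate 2 were richer in GC boxes and CpG.

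The false discovery rates (FDR) stored with the peaks set the libraries apart in another order. The number of peaks at an FDR of 0.01 or less was 0, 0, 204178 and 12065, a difference of 108121.5 between the means (two-sided exact permutation test, p = 0.333). In ZR751shMLL3 replicate 1 these were 97.2% of the list, yet its promoter and GC box shares were near those of the controls. At an FDR of 0.001 the numbers were 0, 0, 54868 and 3798, a difference of 29333. Without ZR751shMLL3 replicate 1 the difference at 0.01 was 12065 and without replicate 2 it was 204178. The lowest FDR in each list was 2.90, 6.22, 0.0299 and 0.0520%. The FDR thus ranked ZR751shMLL3 replicate 1 highest, where GC boxes and promoters did not, and its list is the only 1 of the 4 whose name carries no mark of read filtering and duplicate removal. The part of this in its FDR values was not tested.

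Some promoters were top-ranked in all 4 lists. The 5000 top-ranked peaks of the 4 lists merged into 18289 sites, of which 17577 were in 1 list, 498 in 2, 155 in 3 and 59 in all 4. Promoters made up 18.4% of sites in 1 list, 77.7% of those in 2, 87.1% of those in 3 and 81.4% of those in 4, that is 48 of 59. Of the sites in 1 list only, 3622 were from ZR751shMLL3 replicate 2 and 80.6% of these were promoters, whereas the 4660, 4679 and 4616 sites of the other 3 lists were promoters in 1.89, 2.52 and 2.40% of cases. At 500 top-ranked peaks 25 sites were in all 4 lists, 19 of them promoters. At 20000 peaks 112 sites were, 95 of them promoters. At the shared sites the outermost summits of the 4 lists lay a median of 87 bp apart. They were within 100 bp at 37 of 59 sites, and the largest range was 559 bp. Close summits follow in part from the overlap that defines a shared site.

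The best-ranked shared promoters belonged to genes of varied function, and their summits often lay near a GC box or a CCAAT box, the element bound by the factor NF-Y. Ranks are given in the order of the 4 libraries. CDCA2, which targets a protein phosphatase to chromatin, was at 13, 22, 15 and 16, with its summit 190 bp upstream of the TSS. ZNF687, a zinc finger protein, was at 21, 6, 25 and 5. SLC25A44, a mitochondrial carrier, was at 34, 19, 10 and 28. These ranks lay in the same range in both lines. CIC, a transcriptional repressor, was at 12, 30, 8 and 34, in an intron 308 bp downstream of the TSS. H4C16, a histone H4 gene, was at 40, 23, 18 and 65. EVI5L was at 37, 7, 34 and 67. The ranks of the lines overlapped for each of these 3 as well. FH, fumarate hydratase of the citric acid cycle, was at 31, 49, 3 and 78, and OS9, a lectin of protein quality control, was at 32, 91, 4 and 31. TSC1, an inhibitor of mTORC1 signalling, was at 116, 24, 37 and 92, and NUCKS1, a nuclear DNA-binding protein, was at 18, 33, 24 and 119. The ranks of the lines overlapped for FH, TSC1 and NUCKS1, and OS9 ranked better in both knockdown libraries than in both controls.

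The windows of 4 of these promoters are given to show these boxes. SLC25A44, whose window held neither box, is not among them. They are the 101 bases around the summit in GRCh37, plus strand, with GGGCGG and CCAAT on either strand in capitals. The motifs may share bases.
ZNF687, chr1:151253807-151253907: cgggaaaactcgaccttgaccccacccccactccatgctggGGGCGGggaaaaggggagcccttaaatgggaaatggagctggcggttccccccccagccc
CIC, chr19:42772947-42773047: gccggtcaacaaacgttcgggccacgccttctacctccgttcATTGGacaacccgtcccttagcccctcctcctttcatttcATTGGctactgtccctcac
H4C16, chr12:14924076-14924176: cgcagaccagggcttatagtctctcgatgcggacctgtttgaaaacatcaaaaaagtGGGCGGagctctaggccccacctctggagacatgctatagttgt
EVI5L, chr19:7894837-7894937: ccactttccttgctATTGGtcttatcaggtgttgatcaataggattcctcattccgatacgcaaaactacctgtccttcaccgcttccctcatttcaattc
ZNF687 and H4C16 held a GC box in this window. CIC and EVI5L held CCAAT boxes and no GC box.

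Genes of the SP family were among the shared promoters. SP1 binds its own promoter in other systems, and here the SP1 promoter was at ranks 242, 1279, 30 and 330 and that of SP2, a related factor, at 2856, 107, 26 and 128. They were the only members of the 26 SP and KLF genes with a top-ranked peak in all 4 lists. Both windows are shown because each holds a GC box and a CCAAT box.
SP1, chr12:53773763-53773863: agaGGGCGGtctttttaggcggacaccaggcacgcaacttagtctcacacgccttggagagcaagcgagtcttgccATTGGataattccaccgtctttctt
SP2, chr17:45973261-45973361: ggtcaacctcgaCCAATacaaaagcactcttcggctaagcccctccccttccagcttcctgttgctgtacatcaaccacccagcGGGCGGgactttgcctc

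Of the 59 shared sites, 11 were not promoters of protein-coding genes. By TSSs of protein-coding transcripts, 9 of these lay nearest to TMEM255B, EEF2K, NFE2L3, NCOA6, LRCOL1, DNMT3A, NFIC, SH3BP5 and ZBTB7B. By TSSs of any annotated transcript some lay nearer to others. The TMEM255B site, 33991 bp from the TMEM255B TSS, was 1251 bp from a TSS of GRK1, a protein-coding gene. The sites named for DNMT3A, a DNA methyltransferase, and LRCOL1 were 98 and 467 bp from the TSS of a long noncoding RNA.

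**Figure D3:**
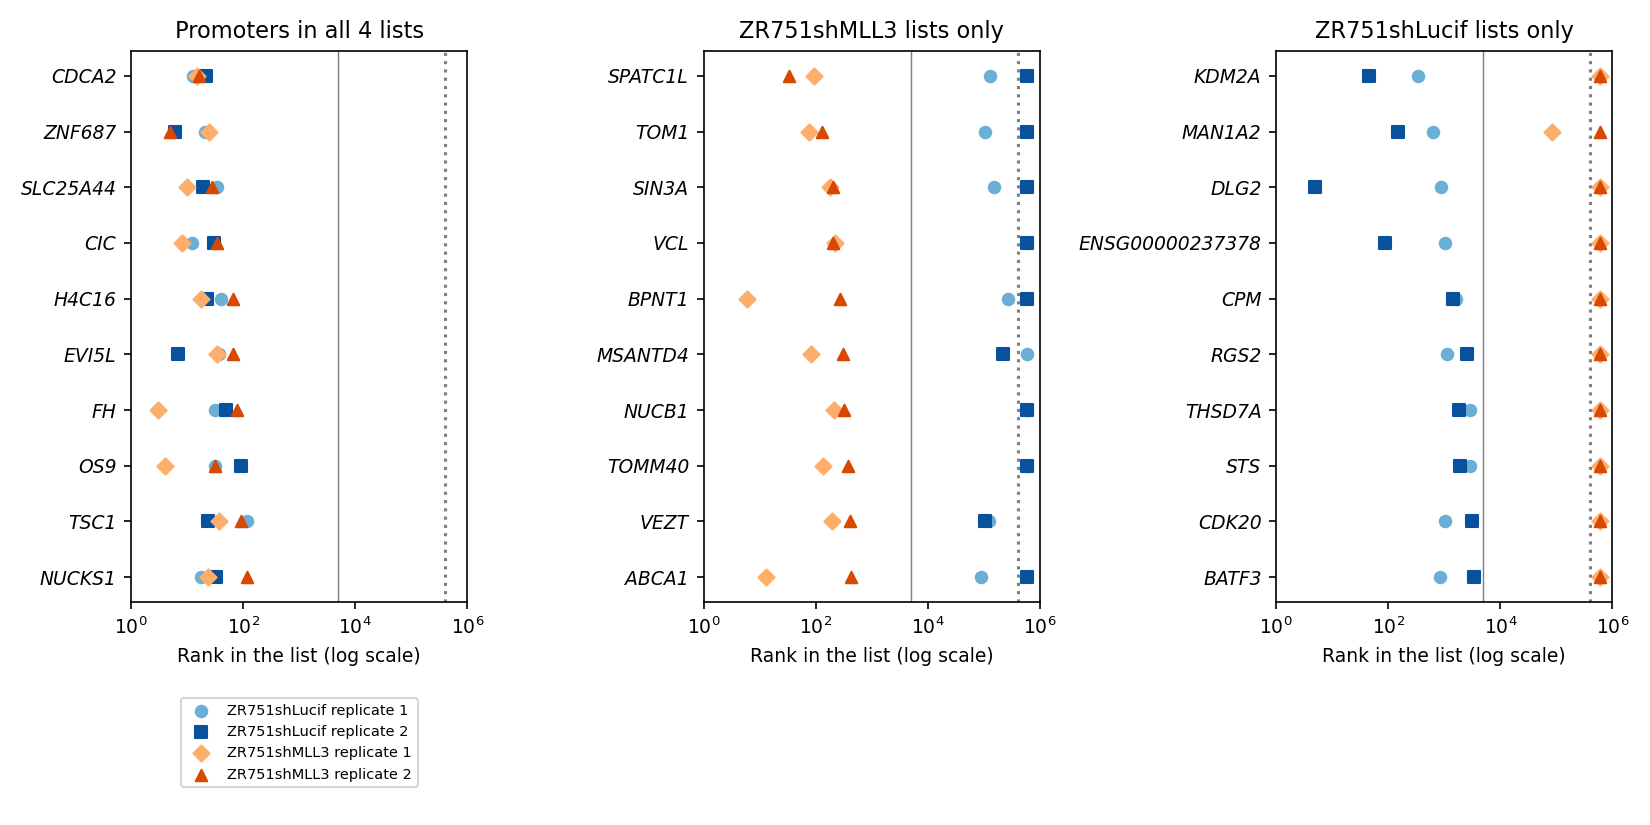
Rank of named sites in each SP1 list (x axis, log scale, low ranks are strong peaks) by nearest gene, for the 10 best promoters shared by all 4 lists, the 10 best sites in ZR751shMLL3 lists only and the 10 best in ZR751shLucif lists only. The solid line is rank 5000, and points right of the dotted line are unlisted. The shared promoters all lie at rank 119 or better.

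Among promoter sites, CCAAT boxes were more frequent the more lists held the site. They lay within 100 bp of the summit in 34.4% of sites in 1 list, 53.5% in 2, 57.8% in 3 and 66.7% in 4, against 21.4, 22.5, 31.1 and 29.2% at positions 1000 bp away. GC boxes were in 64.3, 71.6, 68.9 and 75.0% of them, and an ETS site, CCGGAAG, in 14.6, 13.2, 16.3 and 10.4%. Of the windows on all TSSs, 23.2% held a CCAAT box and 9.45% an ETS site. Both boxes also varied with rank inside a list. Promoter peaks of ZR751shMLL3 replicate 2 held a CCAAT box in 55.7% at ranks 1 to 500, 52.2% at 501 to 1000, 39.6% at 1001 to 2000, 28.6% at 2001 to 5000 and 22.6% at 5001 to 10000. GC boxes went from 79.4 to 80.1, 69.1, 61.8 and 51.6% over these intervals. From ranks 1 to 500 to ranks 5001 to 10000, GC boxes went from 66.4 to 34.2% in ZR751shLucif replicate 1, from 63.1 to 29.0% in ZR751shLucif replicate 2 and from 64.6 to 41.4% in ZR751shMLL3 replicate 1. CCAAT boxes went from 59.5 to 42.2%, from 50.8 to 40.3% and from 62.7 to 36.4% in the same lists, so that the GC box share fell more in both controls and the CCAAT box share fell slightly more in ZR751shMLL3 replicate 1. These are counts of sequence matches in windows, with no test. In all 59 shared sites, 44 held a GC box, at a median of 26 bp from the summit.

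Peaks of the controls and of ZR751shMLL3 replicate 1 were recovered in other libraries mostly at promoters. A peak was recovered where it overlapped, by at least 1 bp, one of the 50000 top-ranked peaks of another list. The median peak width was 360, 216, 280 and 500 bp, so this rule is met more easily in ZR751shMLL3 replicate 2. Of the promoter peaks among the 5000 top-ranked, 80.6% in ZR751shLucif replicate 1, 75.9% in ZR751shLucif replicate 2 and 80.2% in ZR751shMLL3 replicate 1 were found in ZR751shMLL3 replicate 2. Of their peaks outside promoters, 4.42, 2.49 and 4.53% were, against 3.20, 1.67 and 1.94% for positions moved by 50000 bp. Between the other 3 libraries, in both directions, promoter peaks were recovered in 35.6 to 47.2% of cases and other peaks in 2.05 to 3.86%. Promoter peaks with a GC box were found in ZR751shMLL3 replicate 2 in 97.4, 93.2 and 95.7% of cases, and those without in 58.2, 55.4 and 59.4%. The promoter peaks of the controls were thus found in ZR751shMLL3 replicate 2 about as often as those of its own replicate.

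**Figure D4:**
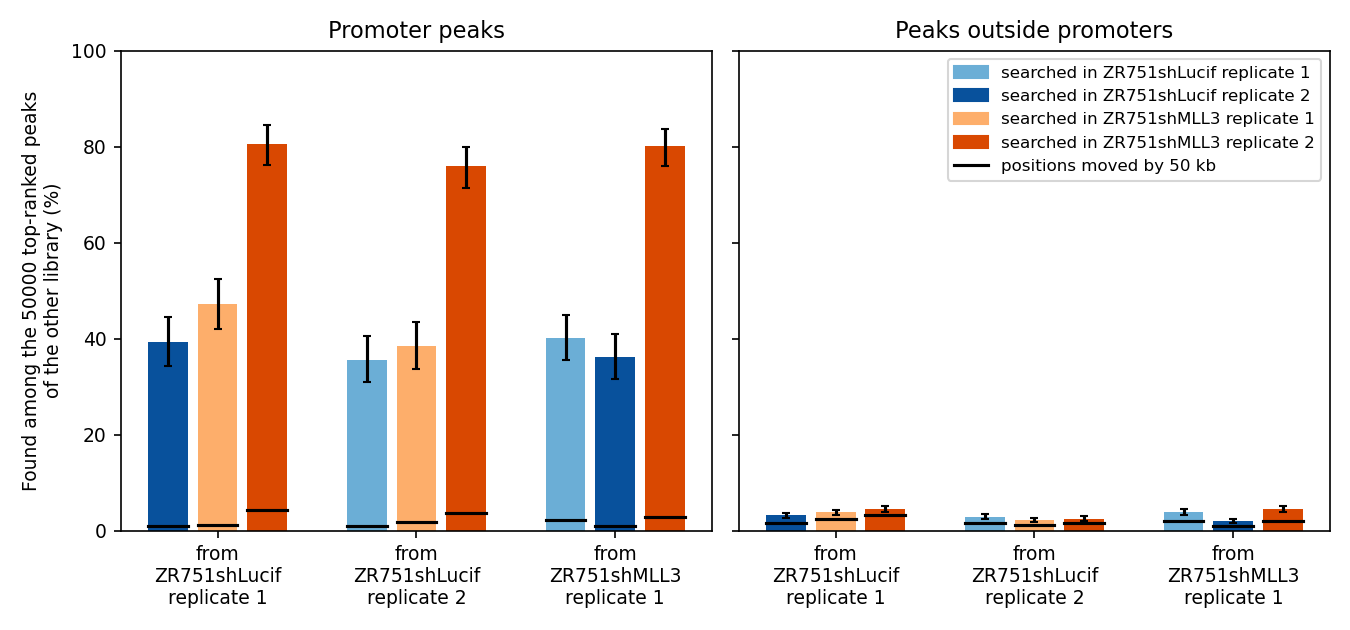
Share of the promoter peaks (left) and of the other peaks (right) among the 5000 top-ranked of 3 libraries that overlap one of the 50000 top-ranked peaks of each other library (y axis, %), with 95% Wilson intervals. Black lines give the share for positions moved by 50 kb. The bars searched in ZR751shMLL3 replicate 2 are the tallest for promoter peaks from each library, at 75.9 to 80.6%.

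The reverse search gave lower values and less contrast. Promoter peaks of ZR751shMLL3 replicate 2 were found among the 50000 top-ranked peaks of ZR751shLucif replicate 1, ZR751shLucif replicate 2 and ZR751shMLL3 replicate 1 in 18.6, 18.7 and 22.3% of cases, and its peaks outside promoters in 14.0, 11.8 and 15.5%, against 2.36, 1.69 and 1.58% for moved positions. With a GC box the promoter peaks were found in 18.9, 17.8 and 23.2% of cases and without in 18.0, 20.5 and 20.4%. Recovery over all of its peaks, promoters and others, fell with rank. At ranks 1 to 100 it was 69.0, 69.0 and 75.0%, at 501 to 1000 it was 30.4, 28.0 and 35.8%, and at 2001 to 5000 it was 10.7, 10.6 and 13.4%, where 72.7, 74.2 and 72.8% of the peaks were not listed in the other libraries at all. Positions moved by 50000 bp were found in 1 to 2% of cases in these intervals. ZR751shMLL3 replicate 1 held a larger share than both controls in each of these intervals, and over promoter peaks its 22.3% lay above the 95% Wilson intervals of the controls, 17.4 to 19.8% and 17.5 to 19.9%, which cover counting error only.

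Overlap of equal numbers of peaks gave the same order. Of the 5000 top-ranked peaks of ZR751shLucif replicate 1, 127 overlapped the 5000 top-ranked of replicate 2, against 8 for moved positions. For ZR751shMLL3 the number was 351, against 12 for moved positions. Across the lines, ZR751shLucif replicates 1 and 2 overlapped ZR751shMLL3 replicate 1 in 137 and 115 peaks and ZR751shMLL3 replicate 2 in 300 and 291 peaks. The number was 291 to 351 where ZR751shMLL3 replicate 2 was searched and 115 to 137 where it was not in the pair, within a line and between lines. With summits within 200 bp, a rule that does not depend on peak width, these were 274 to 328 and 113 to 127. With a reciprocal overlap of 50%, ZR751shLucif replicate 2 overlapped ZR751shMLL3 replicate 2 in 7 peaks, since median widths of 216 and 500 bp can hardly meet that rule. The irreproducible discovery rate (IDR), which ranks matched peaks by how well 2 replicates agree, kept 528 peak pairs of 27123 in ZR751shLucif and 1953 of 23971 in ZR751shMLL3 at an IDR of 0.5, of which 36.0 and 50.3% were promoters. At an IDR of 0.05 it kept 105 and 386, of which 81.9 and 83.7% were promoters. The larger number in ZR751shMLL3 rests on a pair that holds ZR751shMLL3 replicate 2, and each line has a single pair.

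Site by site, no rank passed the test for a difference between the lines in the main setting. The fit of limma to the ranks at 18289 merged sites, with ranks beyond 100000 set to 100000, gave 0 sites higher and 0 lower in ZR751shMLL3 at an adjusted p of 0.05, which is 0% of the sites tested in each direction. The lowest adjusted p was 0.486 (limma, Benjamini-Hochberg). Of these sites 17577 were top-ranked in 1 list only, so the choice of sites itself sets replicates apart. The absence of calls therefore does not show that the lines are alike. With 20000 top-ranked peaks, 22 sites were higher and 3 lower of 75044 tested. At an unadjusted p under 0.05, 162 of the 18289 sites were higher, 130 of them promoters, and 41 were lower, 6 of them promoters. Of all merged sites, 20.8% were promoters. Both counts together are below the share of 0.05 that such a threshold passes where no site differs, so no direction is read from them.

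Sites seen in 1 line only were described by rank. A site counted where it was in the 5000 top-ranked peaks of both libraries of a line and beyond rank 50000 or unlisted in both of the other. There were 15 of 126 such sites in ZR751shLucif, 2 of them promoters, and 104 of 351 in ZR751shMLL3, 80 of them promoters. The larger number again rests on pairs with ZR751shMLL3 replicate 2, which had more promoters than any other list. The best-ranked were SPATC1L at 94 and 33, TOM1, an endosomal sorting adaptor, at 77 and 132, SIN3A, the scaffold of a corepressor complex, at 183 and 201, VCL, vinculin of cell adhesions, at 221 and 203, and BPNT1, a nucleotidase, at 6 and 270 in the 2 ZR751shMLL3 libraries. Next were MSANTD4 at 81 and 307, NUCB1 at 212 and 323, TOMM40, the channel of the mitochondrial outer membrane, at 137 and 376, VEZT, of adherens junctions, at 199 and 410, and ABCA1, a cholesterol exporter, at 13 and 426, the last of them 40159 bp from the TSS. Of these 10 sites VCL, NUCB1 and TOMM40 were unlisted in both control lists, and the other 7 were listed in at least 1 of them, at ranks of 87189 to 273820.

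In ZR751shLucif only, KDM2A, a histone demethylase, was at 340 and 45, and MAN1A2, a Golgi mannosidase, at 628 and 151. KDM2A was unlisted in both knockdown lists and MAN1A2 was at rank 82836 in replicate 1 and unlisted in replicate 2. DLG2, a synaptic scaffold, was at 864 and 5, CPM at 1625 and 1419, RGS2 at 1137 and 2550, THSD7A at 2900 and 1803, STS, steroid sulfatase, at 2908 and 1868, CDK20 at 1034 and 3161, BATF3 at 854 and 3317, and an unnamed gene, ENSG00000237378, at 1043 and 86. None of these 8 was a promoter. The windows of the best promoter sites of each kind follow, because these are the sites that separate the lines by rank.
SPATC1L, ZR751shMLL3 only, chr21:47604486-47604586: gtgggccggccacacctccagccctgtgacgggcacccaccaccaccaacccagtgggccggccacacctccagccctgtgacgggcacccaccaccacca
TOM1, ZR751shMLL3 only, chr22:35696153-35696253: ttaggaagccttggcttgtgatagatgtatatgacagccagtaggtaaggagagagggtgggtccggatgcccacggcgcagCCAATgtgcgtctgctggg
KDM2A, ZR751shLucif only, chr11:67007339-67007439: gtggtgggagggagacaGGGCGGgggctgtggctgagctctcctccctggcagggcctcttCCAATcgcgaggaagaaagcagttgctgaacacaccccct
MAN1A2, ZR751shLucif only, chr1:118040111-118040211: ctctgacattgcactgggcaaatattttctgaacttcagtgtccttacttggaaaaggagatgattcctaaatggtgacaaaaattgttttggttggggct
The SPATC1L window is a tandem repeat with no GC box or CCAAT box, TOM1 held a CCAAT box, KDM2A held both boxes and MAN1A2 neither.

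At the level of genes, promoter peaks were found at 397, 459, 489 and 4024 of 19748 protein-coding genes, which is 2.01, 2.32, 2.48 and 20.4%, the background for the lists below. In all 4 lists 62 genes had a promoter peak. Of the genes of ZR751shLucif replicate 1, ZR751shLucif replicate 2 and ZR751shMLL3 replicate 1, 82.4, 75.8 and 81.6% also had a promoter peak in ZR751shMLL3 replicate 2, and these were 8.13, 8.65 and 9.92% of the genes of that library. Genes with a CpG-rich promoter had a peak in 2.50, 2.89, 2.97 and 27.9% of cases, and genes without in 1.13, 1.30, 1.58 and 6.75%. Expression of each gene was taken as the mean of both RNA-seq libraries of the same line. For the genes with a peak, its median was 16.3, 17.2, 16.1 and 16.4 FPKM, against 3.47, 3.46, 3.24 and 1.24 FPKM for genes without. The contrast was smaller among genes with a CpG-rich promoter, at 17.2, 17.9, 17.3 and 17.0 FPKM against 8.21, 8.21, 7.64 and 5.26 FPKM. Among the other genes it was 9.85, 13.8, 12.1 and 12.8 FPKM against 0.0377, 0.0371, 0.0259 and 0.0182 FPKM. Part of the contrast over all genes thus goes with promoter type.

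Several housekeeping groups, and the replication-dependent histone genes, had peaks at a larger share of members than all genes did in ZR751shMLL3 replicate 2. Of 75 cytosolic ribosomal protein genes, 0, 4, 2 and 44 had a top-ranked promoter peak, of 40 splicing factor genes 1, 2, 5 and 26, of 31 proteasome genes 1, 1, 2 and 14, and of 44 replication-dependent histone genes 1, 0, 1 and 13. In ZR751shMLL3 replicate 2 the share was 58.7% for ribosomal, 65.0% for splicing, 45.2% for proteasome and 29.5% for histone genes, against 20.4% of all genes and 27.9% of genes with a CpG-rich promoter. Only 6 of the 44 histone genes have a CpG-rich promoter, and of genes without one 6.75% had a peak in this library. In ZR751shLucif replicates 1 and 2 and ZR751shMLL3 replicate 1, splicing genes were at 2.50, 5.00 and 12.5%. Ribosomal genes were at 0, 5.33 and 2.67%, proteasome genes at 3.23, 3.23 and 6.45% and histone genes at 2.27, 0 and 2.27%. All genes were at 2.01, 2.32 and 2.48% there, and the shares of the lists rest on at most 5 genes each. RPS19, a ribosomal protein, was at ranks 30705, 4268, 116 and 193, and RPL4 at 53232, 61767, 19 and 463. The RPL4 ranks are those of a site nearest to another gene, ZWILCH, 54 bp upstream of its TSS. PSMA2, a proteasome subunit, was at 46827, 6720, 1762 and 573, and PSMD4 at 4133, 63869, 6152 and 135905. SNRPA1 was at 67363, 46603, 43687 and 7716, and HNRNPU at 117142, 75507, 34944 and 183. RPS19, RPL4, PSMA2, SNRPA1 and HNRNPU ranked better in both knockdown libraries than in both control libraries, and PSMD4 did not. H2AC17 and H2BC17, divergent histone genes, shared a peak at 92251, 12654, 68667 and 3380, and did not rank better in both knockdown libraries either.

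Genes with known SP1 or ERα links were compared next. Of 20 classical SP1 target genes 1, 1, 1 and 7 had a peak, of 17 genes regulated by ERα with SP1 1, 0, 0 and 8, and of 25 classical ERα targets 1, 0, 0 and 4. In ZR751shMLL3 replicate 2 these were 35.0, 47.1 and 16.0%, against 20.4% of all genes and 27.9% of genes with a CpG-rich promoter. With 4 of 25 genes, the classical ERα targets were near the share of all genes in this library. In ZR751shLucif replicate 1 their 1 gene was 4.00%, against 2.01% of all genes. No difference is read from such counts. All 20 and all 17 genes of the first 2 lists have CpG-rich promoters. The 1 SP1 target with a peak in the other 3 libraries was SP1 itself, given above. TK1, thymidine kinase, was at 6414, unlisted, 41141 and 91, RARA, a retinoic acid receptor, at 3575, 14798, 112586 and 4366, PGR, the progesterone receptor, at 238240, 267479, 196971 and 97159, AGR2 at 6797, 44630, 11730 and 16875, and SGK3 at 96500, 45280, 21780 and 39189. TK1 was thus in the top ranks of ZR751shMLL3 replicate 2 only, and its window there, which is shown for that reason, held a GC box.
TK1, chr17:76183383-76183483: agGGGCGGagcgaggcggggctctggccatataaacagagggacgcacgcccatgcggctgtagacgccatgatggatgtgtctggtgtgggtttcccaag
Of 35 cell cycle genes 2, 0, 0 and 17 had a peak, and of 18 H3K4 methyltransferase and partner genes 2, 1, 2 and 8. In ZR751shMLL3 replicate 2 these were 48.6 and 44.4%, beside the same 20.4 and 27.9%. The other 3 libraries held 5.71, 0 and 0% of the cell cycle genes and 11.1, 5.56 and 11.1% of the second list, against 2.01, 2.32 and 2.48% of all genes. MCM4, a helicase subunit, was at 130821, 75392, 69278 and 910, TOP2A, a topoisomerase, at 76409, 31625, 134992 and 1886, SETD1A at 489, 1659, 12588 and 175, and KMT2D at 86604, 134242, 36685 and 1399. KMT2C was at 97381, unlisted, unlisted and 84912. The study displayed genes in browser views, which it picked on these samples, so they are no independent evidence. A gene printed there as CENP1R1 has no entry of that symbol in the annotation and was not analysed here. Of the 6 others, UBE2B, a ubiquitin-conjugating enzyme, was at 17, 26, 847 and 48, CCT2, a chaperonin subunit, at 3943, 2156, 40816 and 719, GLUL, glutamine synthetase, at 51670, 67832, unlisted and 502, YEATS4 at unlisted, 16157, unlisted and 2466, TSPAN13 at 198571, unlisted, unlisted and 2576, and WNT3A, a signalling ligand, was unlisted in all 4. Outside WNT3A, each was among the 5000 top-ranked peaks of ZR751shMLL3 replicate 2, UBE2B was so in the other 3 lists too, and CCT2 in both control lists.

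**Figure D5:**
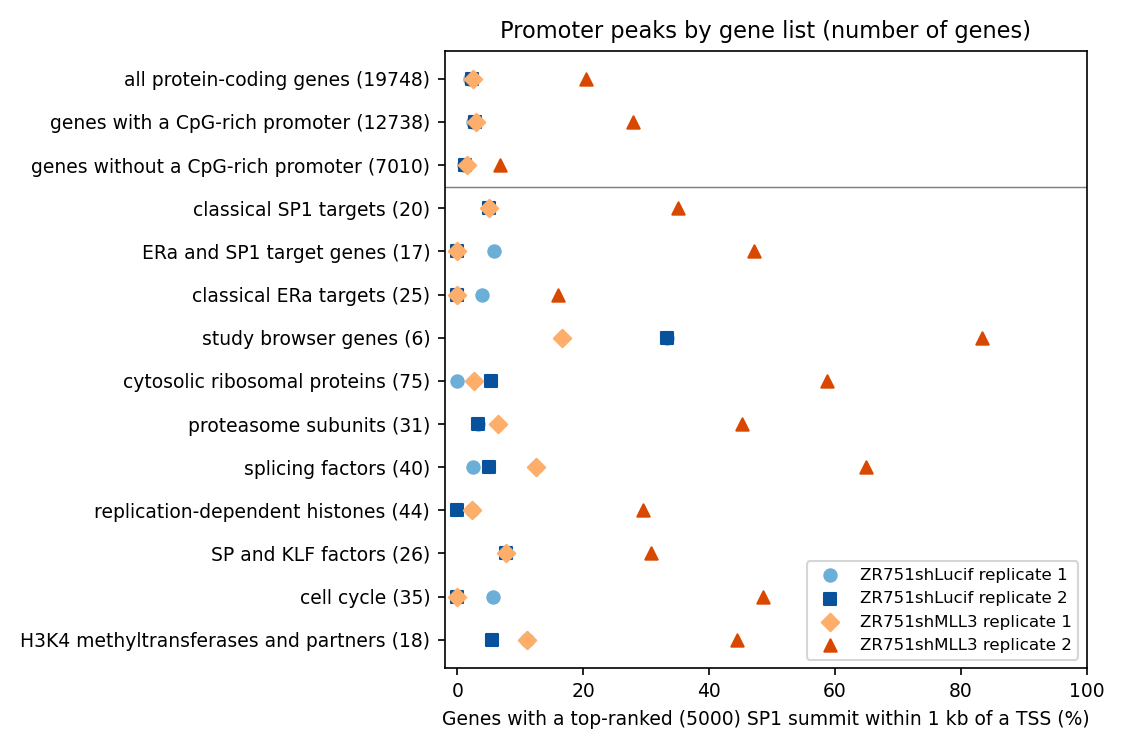
Share of genes with a summit of the 5000 top-ranked SP1 peaks within 1 kb of a TSS (x axis, %) for each gene list (number of genes in brackets), 1 point per library. The points of ZR751shMLL3 replicate 2 lie right of those of the other 3 libraries in every list, at 20.4% for all genes.

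SP1 peaks seldom coincided with those of the other antibodies. Of the 5000 top-ranked SP1 peaks, 0.20 to 0.58% overlapped the 5000 top-ranked ERα peaks of the library of the same line and number, against 0.14 to 0.32% for moved positions, and 0.56 to 1.24% overlapped H3K4me1, against 0.18 to 0.72%. Of the 888 peaks of ZR751shMLL3 replicate 2 outside promoters, 4.17% overlapped H3K4me1, against 0.563% for moved positions. The promoter share of the 5000 top-ranked peaks was 1.94 to 4.18% for ERα and 3.24 to 4.88% for H3K4me1, below the 6.82% of the lowest SP1 library.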

How the data were processed

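SP1 libraries were grouped by the labels of the samples. Reads were aligned by the authors to hg19 with BWA 0.7.5a-r405, checked with FastQC 0.11.4 and processed with Picard 1.126, per the submitters' processing notes. Peaks were called with SPP in each library against 1 input per line. Each deposited list gives a signal value per peak from SPP. It also holds the authors' FDR as −log10. Expression was deposited by the authors as FPKM (fragments scaled for transcript length and library size) per RefSeq gene. The lists give no read depth for single peaks, and Wilson intervals on shares cover counting error only. The antibody was Abcam ab13370.

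Members, gene lists and tests were chosen with earlier results of these data known. Ranks were by signal. TSSs came from GENCODE v44lift37 on GRCh37. limma 3.58.1 in R 4.3.3 was fitted to −log2 of the rank at all merged sites, with Benjamini-Hochberg adjustment. IDR was a Gaussian copula mixture in Python 3.11.15 with numpy 2.4.6, pandas 2.3.3 and scipy 1.17.1. The limma and IDR steps were tested on simulated data whose spread was set and not taken from these lists. This checks the code, not how well the steps work on these data. FPKM entries were matched to genes by RefSeq accession (22890 of 23501). Genes named were the 10 promoters with the lowest worst rank over the libraries, the 10 best sites in each line only, the 2 best members of each list, the browser genes, SP1 and KMT2C, and sites past the adjusted p. Non-promoter sites shared by all lists were named after their values were seen, and 2 of them are not reported here. Replicates were 2 biological replicates of 1 experimental repetition. The replicate numbers were not used to pair the libraries in the main tests. Deviations of same-numbered libraries correlated at 0.0066 over all merged sites and -0.0147 over promoters. This cannot show whether libraries were prepared in pairs, since 17577 of 18289 merged sites were top-ranked in 1 list only and far ranks were capped. Peaks on chromosomes outside the 23 compared were left out. Read counts, inputs and pooled peaks were not analysed here. Figures used matplotlib 3.10.9.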

Additional observations from a re-analysis of the deposited data

How the results depend on the processing

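Of 76 alternatives over 14 results, 51 stayed the same, 25 moved and 0 reversed, and the 4 tested differences kept their direction and their side of the threshold in all 30 of theirs, although no setting could pass it with 2 libraries against 2. The size of the promoter, CpG-rich and GC box differences depended on ZR751shMLL3 replicate 2, as given with them, and at 20000 peaks they were 18.1, 15.2 and 12.9 points. Repeated sites numbered 57 in ZR751shLucif and 161 in ZR751shMLL3 at 1000 top-ranked peaks and 384 and 876 at 20000. With 20000 top-ranked peaks, limma called 22 sites higher and 3 lower of 75044 sites tested. Leaving out 1 library gave 30 to 4643 higher and 5 to 4590 lower, with 3083 and 4643 higher without ZR751shMLL3 replicate 1 or 2 and 4590 and 4395 lower without ZR751shLucif replicate 1 or 2, by construction, since the lone library of a line chose sites from its own top list while both libraries of the other were often at the rank limit. IDR kept 105 and 386 peak pairs at 0.05, and 336 in ZR751shLucif with 50000 top-ranked peaks of each list. Sites in 1 line only were 3 and 26 at 1000 top-ranked peaks. Leaving out 1 library, an alternative chosen after seeing the data, left 60 to 119 sites in every remaining list, of which 49 to 98 were promoters. With the replicate number as a block, the difference in promoter share was 37.98 points (exact permutation test, p = 0.5). In the same setting limma called 0 of 18289 sites, with 167 higher and 42 lower at an unadjusted p under 0.05. Differences in read depth, input or enrichment efficiency between the libraries were not tested.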
